A study of Mus musculus with 8 samples.

Results

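The 6 mouse GATA transcription factor genes, Gata1 to Gata6, and the 2 genes of their FOG cofactors, Zfpm1 (FOG1) and Zfpm2 (FOG2), were followed across 4 sorted cell populations of the midgestation embryo. They were chosen by gene name, with every probe that carries one of these names, which gave 8 genes and 10 probes of 31890 genes and 39419 probes on the array. All 10 probes were well above background on all 8 arrays, so no member was lost to the filter on dim probes that left 19547 genes to test. The cells came from conceptuses that carry the Tg(Ly6a-GFP) transgene, in which Ly6a sequences drive GFP, from C57BL/6 x 129S1/SVImJ F1 mothers and Tg(Ly6a-GFP) fathers. Embryos were at E10.5, the labels give their sex as male, and the aorta-gonad-mesonephros region, umbilical and vitelline arteries of 100 of them were pooled. Cells of hematopoietic clusters, which emerge from the inner wall of these arteries, were sorted as CD31+ VEC+ ESAM+ Kit+, and endothelial cells as CD31+ VEC+ ESAM+ Kit-, each as a GFP+ and a GFP- population. The sorts gave 30000 GFP+ cluster cells, 130000 GFP- cluster cells, 70000 GFP+ endothelial cells and 300000 GFP- endothelial cells. From every population the RNA was divided into 2 fractions, and each fraction was amplified and put on an array of its own, so a p-value here measures the spread between fractions and arrays of 1 pool, not between pools or embryos.

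GATA factors bind DNA at the letters GATA through a pair of zinc fingers. Gata1, Gata2 and Gata3 are known from blood and the nervous system, and Gata4, Gata5 and Gata6 from heart, gut, gonad and other organs of mesoderm and endoderm. GATA2 is needed for the formation and upkeep of blood stem cells and is also made in endothelium, while GATA1 drives red cell and platelet precursors and takes over GATA2's sites as they mature. FOG proteins do not bind DNA at these sites themselves but attach to the amino-terminal finger of a GATA factor and bring in corepressors.

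Sequence upstream of these genes is shown first because Gata1 had the widest range of levels among the members, and genes that GATA1 is known to bind are described below. RefSeq promoter entries (GRCm38.p6) were matched for 5 of the 8 members, at 6 start sites. The 250 bases before each start were searched on both strands for a GATA motif, meaning AGATAA, its variant ending in G (written AGATAG), its variant starting with T (written TGATAA) or the variant with both changes (written TGATAG). They were also searched for CACCC, the letters read by red cell KLF factors such as KLF1. No start site of a member held a GATA motif there, against 26.5% of 32851 promoters. CACCC was found in 52% of all promoters. The motif is rich in A and T, and 5 of the 6 member sequences were richer in G and C (67.2% to 74.0%) than the median promoter (52.4%), so that share is no like-for-like comparison. The Gata1 sequence has 54.0% G and C and is printed 5′ to 3′ with its 2 CACCC matches in capitals. Those of 3 red cell genes that GATA1 is known to bind follow it as a contrast, with the GATA motif alone in capitals: Klf1, which encodes the factor that reads CACCC, Alas2, the first enzyme of red cell heme synthesis, and Epor, the erythropoietin receptor.
Gata1, chrX:7967911-7968160, minus strand: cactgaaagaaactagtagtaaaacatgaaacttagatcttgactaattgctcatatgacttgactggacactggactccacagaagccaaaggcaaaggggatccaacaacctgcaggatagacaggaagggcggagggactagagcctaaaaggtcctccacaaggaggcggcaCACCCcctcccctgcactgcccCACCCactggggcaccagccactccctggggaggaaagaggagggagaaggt
Klf1, chr8:84901732-84901981, plus strand: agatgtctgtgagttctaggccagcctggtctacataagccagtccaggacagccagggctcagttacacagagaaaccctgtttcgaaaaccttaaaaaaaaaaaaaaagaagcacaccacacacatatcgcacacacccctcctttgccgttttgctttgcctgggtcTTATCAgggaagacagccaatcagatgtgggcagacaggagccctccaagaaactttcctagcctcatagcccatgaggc
Alas2, chrX:150547167-150547416, plus strand: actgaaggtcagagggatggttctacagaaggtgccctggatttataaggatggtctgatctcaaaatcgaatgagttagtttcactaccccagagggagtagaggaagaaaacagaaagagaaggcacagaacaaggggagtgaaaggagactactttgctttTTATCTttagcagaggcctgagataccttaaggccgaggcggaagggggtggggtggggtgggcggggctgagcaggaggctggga
Epor, chr9:21963577-21963826, minus strand: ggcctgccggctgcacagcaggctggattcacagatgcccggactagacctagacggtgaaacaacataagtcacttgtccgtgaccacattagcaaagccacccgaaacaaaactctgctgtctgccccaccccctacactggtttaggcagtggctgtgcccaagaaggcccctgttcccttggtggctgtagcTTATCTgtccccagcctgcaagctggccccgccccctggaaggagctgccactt
In each of these 3 the motif lies on the reverse strand, and its first printed base is 80 bases before the start in Klf1, 86 in Alas2 and 54 in Epor. Of the 19 promoters searched, of 15 red cell targets, 63.2% held a GATA motif. Entries on the chromosome that carries Gata6 were left out of this search, and G and C content was not compared for this share. A match is a description of the letters, and its absence says nothing of sites elsewhere.

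Levels are given as log2 of the processed signal relative to the array's own 75th percentile, so 0 is the level that 75% of non-control spots stay below. Levels of different genes, which rest on different probes, are not compared. The 75th percentile lay between 708.3 and 1477 signal units, 54.6% to 63.7% of probes were well above background, and no spot was saturated. Ly6a, whose sequences drive the GFP, followed the sort, with a mean level of -0.53 ± 0.060 (SD, n = 2) in GFP+ and -3.91 ± 0.057 in GFP- cluster cells, and 0.39 ± 0.038 and -3.67 ± 0.39 in the endothelial pair. Kit was higher in cluster than endothelial cells, by 1.55 among GFP+ and 0.64 among GFP- cells, yet its probe read 1.32 ± 0.052 and 1.34 ± 0.015 in the populations sorted as Kit-. The endothelial genes Cdh5 and Pecam1 were well above background everywhere. In bulk samples fewer cells of a type and less RNA per cell cannot be told apart.

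**Figure D1:**
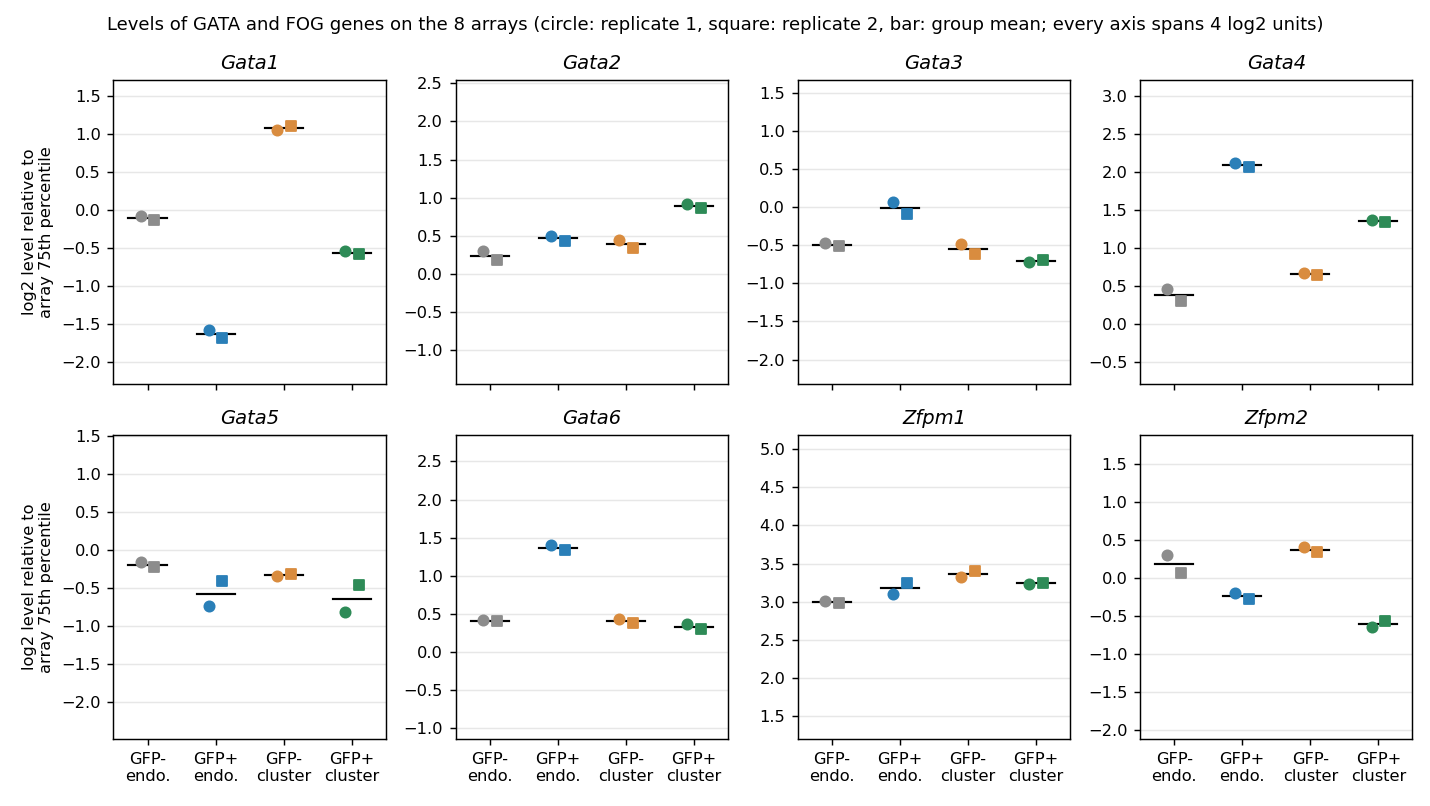
Level of each member on the 8 arrays (y axis, log2 relative to the array 75th percentile, every panel spanning the same range) in the 4 populations, with replicates as circles and squares and group means as bars. Gata1 spans 2.70 log2 units between its highest and lowest group, Gata4 1.72, Gata6 1.04 and Zfpm2 0.98. Replicates lie furthest apart for Gata5 in GFP+ cluster (SD 0.255) and GFP+ endothelial cells (0.228), then for Zfpm2 in GFP- endothelial cells (0.168).

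Gata1, the red cell and platelet factor, was the member with the widest range, highest in GFP- cluster cells and lowest in GFP+ endothelial cells. Its probe (mm9 chrX:7536392-7536451, minus strand) read -0.54 and -0.58 on the GFP+ cluster arrays, 1.04 and 1.1 on the GFP- cluster arrays, -1.58 and -1.68 on the GFP+ endothelial arrays and -0.08 and -0.13 on the GFP- endothelial arrays. No groups overlapped, and each step of the order GFP- cluster, GFP- endothelial, GFP+ cluster, GFP+ endothelial was larger than the spread between arrays. GFP+ cells were lower than GFP- cells by a similar amount in both classes. Among cluster cells the difference was -1.63 ± 0.054 (log2, SE; 3.10-fold lower, limma adjusted p = 3.87e-05), and among endothelial cells -1.53 ± 0.054 (2.88-fold lower, adjusted p = 7.28e-05). The difference between those, -0.10, had a 95% interval from -0.291 to 0.0855 (adjusted p = 0.34). Cluster cells in turn exceeded endothelial cells of the same GFP class, by 1.07 ± 0.054 among GFP+ cells (adjusted p = 0.000109) and 1.17 ± 0.054 among GFP- cells (adjusted p = 0.000244). These comparisons share arrays and are not independent of each other.

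Red cell markers were lower where Gata1 was in both GFP comparisons, but not between the GFP+ classes. Of 12 on the array, 11 were lower in GFP+ than GFP- cells of both classes, and all 12 were higher in cluster than endothelial cells among GFP- cells. Among GFP+ cells, where Gata1 was 1.07 higher in cluster cells, 3 markers were higher and 3 lower there (median 0.10). The sum of the 12 markers' unlogged signals, in units of the array's 75th percentile, was 74.18 to 74.67 in GFP+ cluster, 639.8 to 663 in GFP- cluster, 83.03 to 84.91 in GFP+ endothelial and 404.6 to 406.8 in GFP- endothelial cells. Epb42, a red cell membrane protein, was not well above background on either GFP+ cluster array or on either GFP+ endothelial array. All populations were gated on CD31, VEC and ESAM. The part of red cell RNA in the Gata1 difference was not tested.

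Gata2, the stem cell and endothelial factor, was highest in GFP+ cluster cells. Levels were 0.92 and 0.86 in GFP+ cluster, 0.45 and 0.33 in GFP- cluster, 0.49 and 0.44 in GFP+ endothelial and 0.29 and 0.18 in GFP- endothelial cells (probe at mm9 chr6:88156362-88156421, plus strand). Both GFP+ cluster arrays stood above the other 6, while the GFP- cluster and GFP+ endothelial arrays overlapped. GFP+ cluster cells exceeded GFP- cluster cells by 0.50 ± 0.066 (adjusted p = 0.00347) and GFP+ endothelial cells by 0.43 ± 0.066 (adjusted p = 0.00385). Among endothelial cells the GFP difference was 0.23 ± 0.066 (adjusted p = 0.0333), and it lost the call without GFP- endothelial replicate 2 (adjusted p = 0.145), GFP+ endothelial replicate 1 (0.135) or GFP+ endothelial replicate 2 (0.0745), and when dim probes were kept in the fit (0.0912). Among GFP- cells cluster exceeded endothelial by 0.16, with a 95% interval from -0.00926 to 0.32 (adjusted p = 0.148). The GFP difference was larger in cluster than endothelial cells by 0.27 (adjusted p = 0.0783; 0.0287 in the fit with a replicate block, 0.0313 with trend and robust moderation, 0.0497 after quantile normalization). Gata1 and Gata2 thus went opposite ways between GFP+ and GFP- cells of both classes.

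Blood markers were also highest where Gata2 was: 11 of 12 were higher in GFP+ than GFP- cluster cells and their summed signal was 57.74 to 59.14 in GFP+ cluster, 22.92 to 23.18 in GFP- cluster, 14.81 to 15.06 in GFP+ endothelial and 14.39 to 14.96 in GFP- endothelial cells. Between the endothelial populations 6 of the 12 were higher and 2 lower in GFP+ cells. Lcp1, the brightest and 1 of the lower ones, made up 7.538 to 7.815 of the GFP+ and 8.823 to 9.34 of the GFP- endothelial sum. Without Lcp1, a choice made after seeing the data, these sums were 7.247 to 7.273 and 5.567 to 5.622. The cluster sums were then 49.89 to 51.2 in GFP+ and 15.38 to 15.68 in GFP- cells. All 14 macrophage markers were higher in GFP+ cells of both classes, with sums of 35.67 to 36.38 and 12.35 to 12.76 in GFP+ and GFP- cluster cells and of 12.43 to 12.97 and 5.756 to 5.843 in the endothelial pair. Their part in the Gata2 difference was not tested.

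Gata3, which acts in T cells and in sympathetic and adrenal precursors, was highest in GFP+ endothelial cells, at 0.06 and -0.09, with -0.47 and -0.51 in GFP- endothelial, -0.48 and -0.62 in GFP- cluster and -0.72 and -0.69 in GFP+ cluster cells (probe at mm9 chr2:9779551-9779610, minus strand). The GFP+ endothelial arrays stood above the other 6, and the neighbours among the other 3 groups did not differ beyond their spread. GFP+ endothelial cells exceeded GFP- endothelial cells by 0.47 ± 0.075 (1.39-fold, adjusted p = 0.00424), and GFP+ cluster cells were below GFP+ endothelial cells by -0.69 ± 0.075 (adjusted p = 0.00111). Between the cluster populations the difference was -0.15 (95% interval -0.338 to 0.0324, adjusted p = 0.177), and between the GFP- populations -0.06 (-0.243 to 0.127, adjusted p = 0.621).

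Gata4, a factor of heart, gonad and endoderm, had the largest GFP difference of the members among endothelial cells. It read 2.12 and 2.07 in GFP+ endothelial, 1.37 and 1.35 in GFP+ cluster, 0.67 and 0.65 in GFP- cluster and 0.46 and 0.30 in GFP- endothelial cells (probe at mm9 chr14:63817858-63817917, minus strand). Both GFP+ populations stood above both GFP- populations, and no groups overlapped. The GFP difference was 1.72 ± 0.063 among endothelial cells (3.29-fold, adjusted p = 8.18e-05) and 0.70 ± 0.063 among cluster cells (1.62-fold, adjusted p = 0.000847). Among GFP+ cells cluster was below endothelial, by -0.74 ± 0.063 (adjusted p = 0.000511). Among GFP- cells it was above, by 0.28 ± 0.063 (adjusted p = 0.0293), a call lost when any 1 array other than GFP- endothelial replicate 1 was left out (adjusted p from 0.0502 to 0.121). It was also lost when dim probes were kept (0.11), and under normexp background correction with the local background of 2 outlying spots reset (0.294).

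Gata6, a close relative with roles in endoderm, heart and vascular smooth muscle, was raised in 1 population. Levels were 1.40 and 1.34 in GFP+ endothelial cells, against 0.41 and 0.40 in GFP- endothelial, 0.43 and 0.38 in GFP- cluster and 0.36 and 0.30 in GFP+ cluster cells. Neighbours among the last 3 groups did not differ beyond their spread. The GFP difference was 0.96 ± 0.049 among endothelial cells (1.95-fold, adjusted p = 0.000188) and -0.08 among cluster cells (95% interval -0.198 to 0.046, adjusted p = 0.293). GFP+ cluster cells were 2.05-fold below GFP+ endothelial cells (-1.04 ± 0.049, adjusted p = 9.38e-05), while the GFP- populations differed by -0.0013 (-0.123 to 0.121, adjusted p = 0.989), a value whose sign turned under quantile normalization (3e-04) and normexp (0.0711).

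Gata5, the third gene of that group, passed no test. Its levels were -0.82 and -0.46 in GFP+ cluster, -0.35 and -0.32 in GFP- cluster, -0.74 and -0.41 in GFP+ endothelial and -0.16 and -0.23 in GFP- endothelial cells (probe at mm9 chr2:180059867-180059926, minus strand). Arrays of both GFP+ groups lay further apart than those of the GFP- groups, and GFP+ arrays were below the GFP- arrays of their class in both classes, without overlap. The GFP differences of -0.30 ± 0.15 in cluster cells (adjusted p = 0.183) and -0.38 ± 0.15 in endothelial cells (adjusted p = 0.0802) were near the spread between arrays. Without either GFP+ cluster array the endothelial one was called (adjusted p = 0.0469), as it was without GFP+ endothelial replicate 2 (0.0484) and with trend and robust moderation (0.0401). The Gata5 probe is also the least particular of the 10. It shares a run of 16 bases with 11 probes of 11 other genes and with 47 of 32851 promoters, where no other member's probe shared one with more than 1 probe or 2 promoters. The commonest run, shown because it recurs across genes, spans probe bases 30 to 45 and stands in 35 promoters.
Gata5 probe run: CTGGCTGTCCTGGAAC
Letters of this kind recur in mouse B1 repeats, and their part in the Gata5 signal was not tested.

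Zfpm1, the FOG1 gene and the main partner of GATA1 and GATA2 in blood, varied least of the 8. Its brighter probe (mm9 chr8:124861092-124861151, plus strand) read 3.24 and 3.24 in GFP+ cluster, 3.32 and 3.40 in GFP- cluster, 3.10 and 3.25 in GFP+ endothelial and 3.01 and 2.99 in GFP- endothelial cells. The GFP- endothelial arrays were lowest, and no neighbours in the order of the groups differed beyond their spread. Cluster cells exceeded endothelial cells among the GFP- populations by 0.36 ± 0.062 (1.28-fold, adjusted p = 0.0136). That call was lost without any 1 of the 4 GFP- arrays (adjusted p from 0.0515 to 0.0772) and when dim probes were kept (0.0636). The GFP difference among endothelial cells was 0.18 ± 0.062 (adjusted p = 0.0562) and became a call in the fit with a replicate block (0.0485), without GFP+ endothelial replicate 1 (0.0352), under quantile normalization, where it was 0.33, in the authors' values (0.0105), with probes averaged (0.0338), with only genes above background on all arrays (0.0425) and with trend and robust moderation (0.0178). Among cluster cells it was -0.12 (95% interval -0.273 to 0.0341, adjusted p = 0.199). The other Zfpm1 probe overlaps the first by 55 bases and gave 0.27 among endothelial cells (adjusted p = 0.0238 in the fit of every probe) and 0.35 between the GFP- classes (adjusted p = 0.0223), so the probes disagreed on the first of these calls.

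Zfpm2, the FOG2 gene, partner of GATA4 in heart and gonad, was lower in GFP+ cells of both classes. Its brighter probe (mm9 chr15:40935115-40935174, plus strand) read -0.64 and -0.57 in GFP+ cluster, 0.40 and 0.34 in GFP- cluster, -0.20 and -0.27 in GFP+ endothelial and 0.31 and 0.07 in GFP- endothelial cells. GFP+ arrays of both classes were below all GFP- arrays. The GFP difference was -0.98 ± 0.088 in cluster cells (1.97-fold lower, adjusted p = 0.00081) and -0.43 ± 0.088 in endothelial cells (1.34-fold lower, adjusted p = 0.0107; 0.0515 without GFP+ endothelial replicate 2). Among GFP+ cells cluster was below endothelial by -0.37 ± 0.088 (adjusted p = 0.0176), a call lost without GFP+ cluster replicate 1 (0.0763) or GFP+ endothelial replicate 1 (0.0806) and under normexp with 2 spots reset (0.0718). Among GFP- cells the difference was 0.18 (95% interval -0.0334 to 0.403, adjusted p = 0.185). The dimmer probe, which overlaps the first by 7 bases, gave -0.98 and -0.38 for the GFP differences (adjusted p = 0.000475 and 0.009) and called the GFP- classes apart (0.32, adjusted p = 0.0334), where the brighter probe did not. Zfpm2 and Gata4 therefore had opposite GFP differences in both classes.

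Counted over the members, 4 of 8 differed between GFP+ and GFP- cluster cells, where 32.7% of all genes tested did (11.8% higher, 20.9% lower): Gata2 and Gata4 were higher, Gata1 and Zfpm2 lower. Between GFP+ and GFP- endothelial cells 6 differed, with a background of 51.5% (18.1% higher, 33.4% lower): Gata2, Gata3, Gata4 and Gata6 were higher, Gata1 and Zfpm2 lower. Of the genes called in that comparison 35.2% were higher, but 50.7% after quantile normalization and 48.5% in the authors' values. The median difference of all genes there was -0.129, with -0.0258 after quantile normalization and -0.0383 in the authors' values. Between cluster and endothelial cells 6 members differed among GFP+ cells (background 50.3%, with 26.1% higher and 24.2% lower), Gata1 and Gata2 higher and Gata3, Gata4, Gata6 and Zfpm2 lower. Among GFP- cells 3 differed (background 24.2%, with 11.8% higher and 12.4% lower), Gata1, Gata4 and Zfpm1, all higher in cluster cells. With 8 members these shares are a description beside the background and set the members apart from nothing. The 2 diagonal pairs of groups, fitted only to order the levels, called 5 members each. For GFP+ cluster against GFP- endothelial cells 3 were higher and 2 lower (background 50.5%, with 19.2% higher and 31.4% lower). For GFP- cluster against GFP+ endothelial cells 2 were higher and 3 lower (background 47.1%, with 31.4% higher and 15.7% lower).

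**Figure D2:**
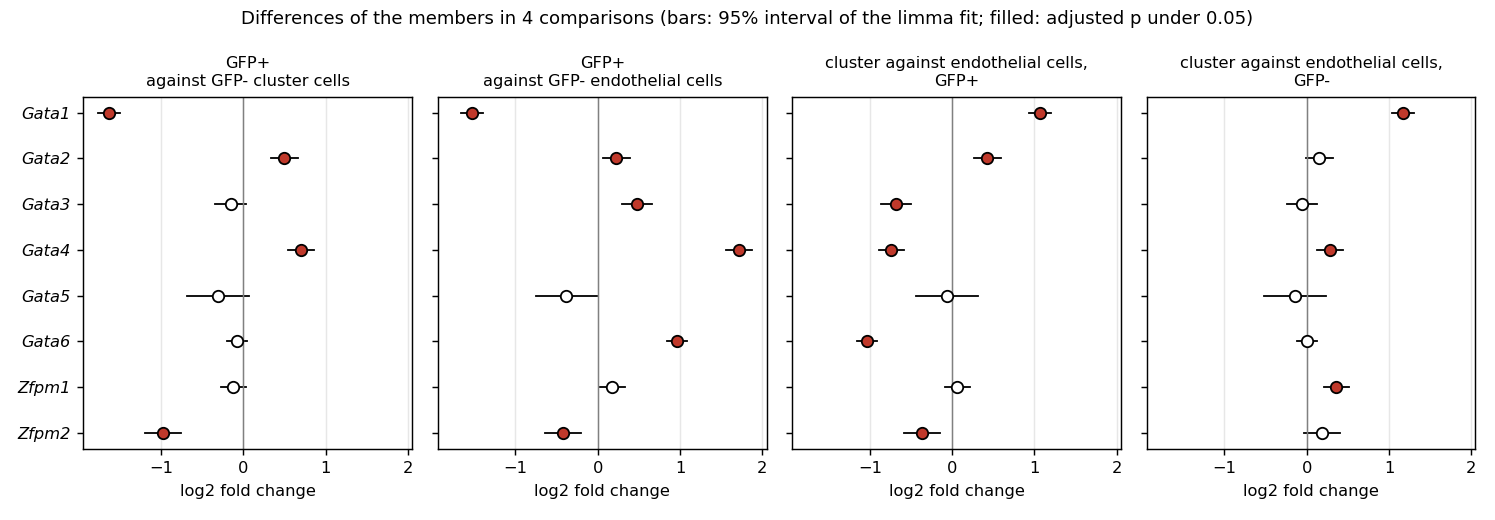
Log2 differences of the 8 members (x axis) in 4 comparisons, with 95% intervals of the limma fit as bars and filled points where the adjusted p is under 0.05. Gata1 is left of 0 in both GFP comparisons and right of 0 in both class comparisons, and Gata3, Gata4 and Gata6 lie right of 0 among endothelial cells and left of 0 between the GFP+ classes.

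Whether the GFP difference was the same in both classes was tested as an interaction. It was called for 4 members, Gata3, Gata4, Gata6 and Zfpm2, against 31.1% of all genes, and in each the value was lower in cluster than in endothelial cells, as for 15.4% of all genes. Gata4 differed by -1.02 ± 0.090 (adjusted p = 0.00229) and Gata6 by -1.04 ± 0.069 (adjusted p = 0.00135). Gata3 differed by -0.63 ± 0.11 (adjusted p = 0.0105). For Zfpm2 the value was -0.55 ± 0.12 (adjusted p = 0.0239), and the call was lost without any 1 of 5 arrays, both GFP- cluster arrays, GFP+ cluster replicate 1 or either GFP+ endothelial array (adjusted p from 0.0529 to 0.0768), when dim probes were kept (0.0751) and under normexp with 2 spots reset (0.098). Zfpm1 came close, at -0.30 ± 0.088 (adjusted p = 0.0504; 0.0444 with a replicate block, 0.0396 without GFP+ endothelial replicate 1), and was called under the same other settings as its endothelial difference (0.013 to 0.0457). Gata4 and Zfpm2 kept the same sign in both classes, while Gata3 and Gata6 were raised among endothelial cells and were not called among cluster cells. In these 5 tests the sign was the same in each replicate number alone for all 23 member differences that were called, which come from those same arrays. It was also the same for 15 of the 17 that were not called.

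**Figure D3:**
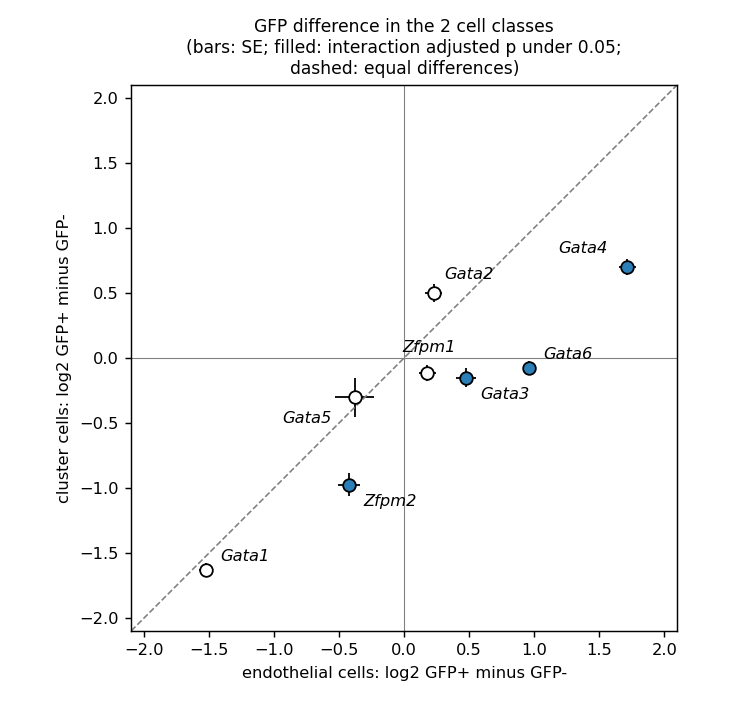
GFP+ minus GFP- difference of each member in endothelial cells (x axis, log2) and cluster cells (y axis, log2), with standard errors as bars, a dashed line where both are equal, and filled points where the interaction's adjusted p is under 0.05. Gata3, Gata4, Gata6 and Zfpm2 lie below the line, and Gata1 lies near it at -1.53 and -1.63.

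Genes that act with or downstream of these factors were counted in lists, whose medians stand beside the medians of all genes tested, -0.0758 between the cluster populations and -0.129 between the endothelial ones. Red cell targets of GATA1 were lower in GFP+ cells of both classes, as Gata1 was. Of 21 tested, 17 were lower and 1 higher in GFP+ cluster cells (median -2.78), and 18 were lower in GFP+ endothelial cells (median -1.91). The largest falls measured on every array were Rhd, a blood group carrier (-4.16 ± 0.060 in cluster, -2.78 ± 0.060 in endothelial cells), Slc4a1, the band 3 anion exchanger (-4.15 and -2.80), and Alas2 (-4.01 and -2.80), all with adjusted p under 0.05. Epb42, as large, had only a bound in the GFP+ cells named above. Klf1 was lower by -2.88 ± 0.14 and -1.35 ± 0.14, and Epor by -1.72 ± 0.041 and -0.40 ± 0.041. Gfi1b, a repressor of red cell and platelet precursors, was the 1 target higher in GFP+ cluster cells (0.70 ± 0.071, adjusted p = 0.00126), and it was lower in GFP+ endothelial cells (-1.01 ± 0.071, adjusted p = 0.000397). Between the GFP- classes 18 of 21 were higher in cluster cells (median 0.98), as Gata1 was. Between the GFP+ classes, where Gata1 was also higher in cluster cells, 5 were higher and 6 lower (median 0.09). Of these 21 targets 10 are also among the red cell markers whose sums are given above, so they are no separate measure of that RNA. Of the 12 targets with a GATA motif in a searched promoter, 8 were lower in GFP+ cluster cells, 1 was higher and 3 were not called. All 3 with a searched promoter and no motif were lower.

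Platelet lineage targets of GATA1 were not lower with it in cluster cells. Of 15, 11 were higher and 1 lower in GFP+ cluster cells (median 0.82), while 2 were higher and 7 lower in GFP+ endothelial cells (median -0.51). Selp, the P-selectin gene, was higher by 1.85 ± 0.11 (adjusted p = 0.000185), Itgb3, an integrin of platelets, by 1.61 and Nfe2, a factor of platelet release, by 1.45 in GFP+ cluster cells. Among endothelial cells the collagen receptor Gp6 was lower by -1.31, Pf4, a platelet chemokine, by -1.09, Gp5 by -1.05 and Treml1, a platelet granule receptor, by -1.03. Vwf, made by endothelium as well as platelets, was higher in both (1.36 and 2.27). The interaction was called for 12 of the 15, with 11 higher in cluster cells, Gp9 by 2.22 and Pf4 by 1.68, and only Vwf lower (-0.91). Between the GFP- classes, where Gata1 was higher in cluster cells, 3 were higher there and 9 lower (median -1.11). Between the GFP+ classes 6 were higher and 7 lower (median -0.36). Without Vwf, the brightest, the summed signal was 18.62 to 19.39 in GFP+ cluster and 8.859 to 9.159 in GFP- cluster cells. It was 12.12 to 12.79 in GFP+ and 22.95 to 22.98 in GFP- endothelial cells. The part of platelet RNA in these differences was not tested.

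Partner factors that share sites with GATA1 and GATA2 went both ways. Between the cluster populations 8 of 17 were higher and 4 lower in GFP+ cells, against 11.8% and 20.9% of all genes. Between the endothelial populations 5 were higher and 6 lower, against 18.1% and 33.4% of all genes. Runx1, needed for cluster formation, was higher by 1.96 ± 0.090 and 0.88 ± 0.090, and Myb, a factor of stem and progenitor cells, by 1.90 ± 0.062 and 0.89 ± 0.062. Spi1, the PU.1 gene, was higher by 1.91 ± 0.22 in GFP+ cluster cells, and Cbfa2t3, a corepressor that joins TAL1, by 0.96 ± 0.067 there and 1.13 ± 0.067 in GFP+ endothelial cells. Tal1, which bridges GATA factors to E-box proteins, was not called in either (-0.16, adjusted p = 0.051, and -0.08, adjusted p = 0.187). Its E-protein partners Tcf12 (-0.41) and Tcf3 (-0.25) and the bridging gene Ldb1 (-0.38) were lower in GFP+ cluster cells. Of the 12 genes of the GATA2 heptad and stem cell list, 7 were higher in GFP+ cells of either class, none lower among cluster cells and 3 among endothelial cells. Erg, Fli1, Lmo2, Lyl1, Myb, Runx1 and Tal1 are in this list and among the partner factors, so the counts are not separate. Of the partner factors, Runx1, Myb, Spi1 and Gfi1b are also among the blood markers. Klf1, Tal1 and Gfi1b are also among the red cell targets, and Nfe2 is among the platelet targets. Hlf, a stem cell factor, was higher by 2.41 ± 0.21 and 1.38 ± 0.21, and Mecom by 0.87 ± 0.098 and 0.47 ± 0.098. Erg was lower in GFP+ endothelial cells by -0.58 ± 0.081 (adjusted p = 0.00274).

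Calls of endothelial targets of GATA2 differed between the classes. In GFP+ cluster cells, where 20.9% of all genes were lower and 11.8% higher, 4 of 10 were lower and none higher. Among the 4 were Emcn (-0.48) and Cdh5 (-0.44), both endothelial surface proteins. In GFP+ endothelial cells 6 were higher and 3 lower, against 18.1% and 33.4% of all genes. The 3 lower ones, Kdr (-0.34) and Cdh5 (-0.26) among them, were also lower in GFP+ cluster cells. Emcn was higher in GFP+ endothelial cells (0.35), and the other higher ones were not called in cluster cells. Edn1, the endothelin gene, was higher by 1.24 ± 0.057 (adjusted p = 0.000137), Tek, the angiopoietin receptor, by 0.93 ± 0.074 and Nos3, endothelial nitric oxide synthase, by 0.51 ± 0.047. Cdh5, Emcn, Kdr, Pecam1 and Tek are also among the endothelial markers whose sums are given below, so these targets are no separate measure of endothelial RNA. Of 11 mast cell and basophil genes 6 were well above background on neither array of GFP+ cluster cells, Fcer1a, Cma1 and Tpsab1 among them, and 3 of the 5 tested were higher there, Mitf (1.17), Kit (0.89) and Hdc (0.89). Kit is also among the blood markers, and its protein was used in the sort.

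**Figure D4:**
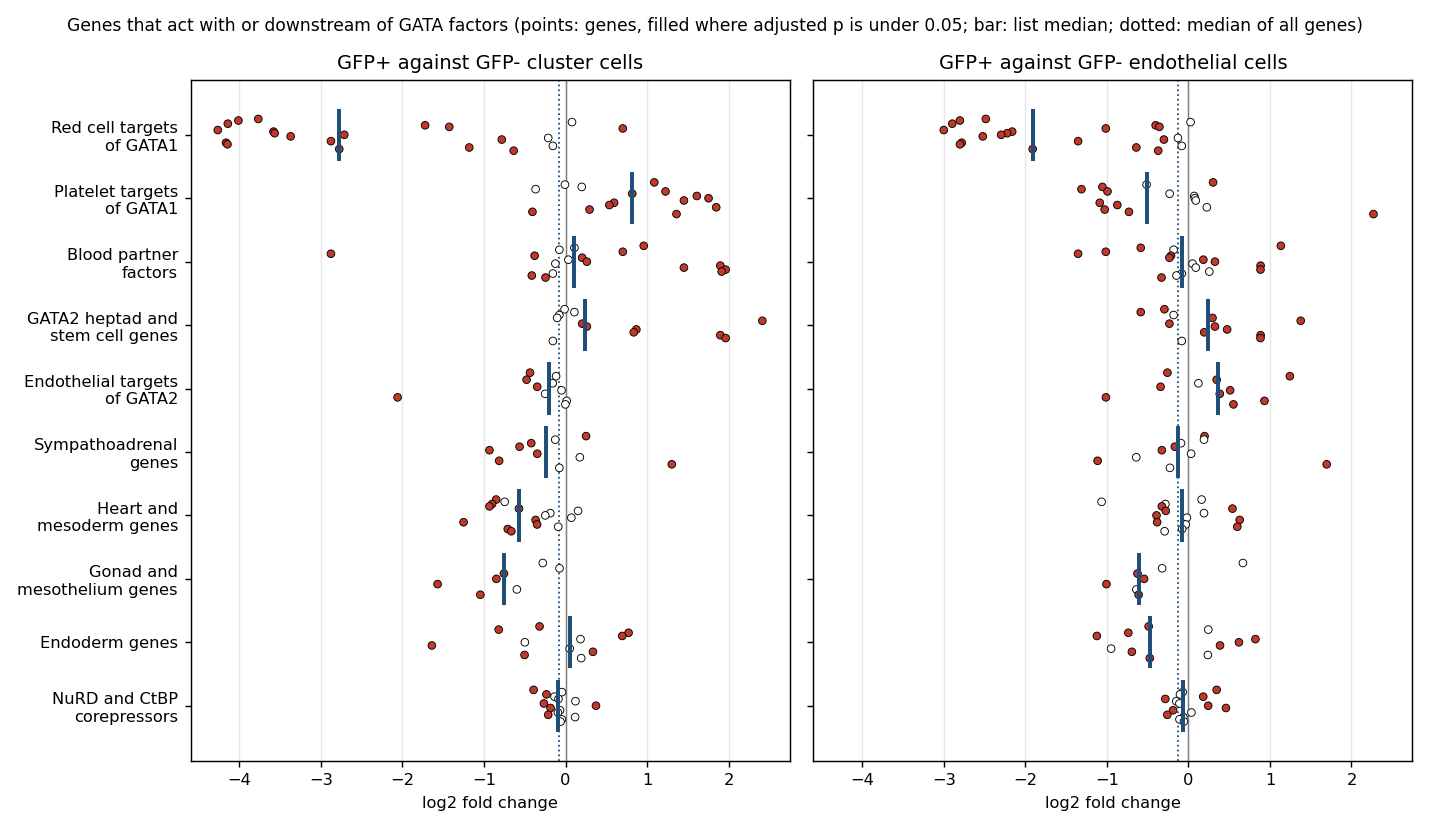
GFP+ minus GFP- difference (x axis, log2) of each gene of 10 lists in cluster cells (left) and endothelial cells (right), filled where adjusted p is under 0.05, with list medians as bars and the median of all genes as a dotted line. Red cell targets lie left in both panels, with medians of -2.78 and -1.91, and platelet targets lie right among cluster cells and left among endothelial cells, with medians of 0.82 and -0.51.

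Genes that work with Gata4, Gata5, Gata6 and Zfpm2 in heart and mesoderm were lower in GFP+ cluster cells in 9 of 15 cases and higher in none (median -0.57). The largest were Pdgfra, a receptor of mesenchyme (-1.25 ± 0.059), the basic helix-loop-helix factors Hand2 (-0.93) and Hand1 (-0.90), and Bmp4 (-0.85). In GFP+ endothelial cells, where Gata4 and Gata6 were highest, 3 were higher and 4 lower of the 15 (median -0.08), where 18.1% of all genes were higher and 33.4% lower. The higher ones were Nr2f2, a venous and atrial receptor (0.63 ± 0.058), Tbx20 (0.60 ± 0.10) and Isl1 (0.54 ± 0.074), the last 2 being cardiac transcription factors. The lower ones were Myl7, an atrial myosin light chain (-0.39), Pdgfra (-0.38), Hand2 (-0.33) and Mef2c, a muscle and endothelial factor (-0.28). The heart genes Nkx2-5 and Myocd were well above background on neither array of any population. Of 10 gonad and mesothelium genes 7 were tested, and 4 were lower in GFP+ cells of each class, such as Wt1 (-1.04 and -0.61) and Sox9 (-0.85 and -0.54). None was higher. Endoderm genes were split. Among the cluster populations (GFP+ against GFP-) 3 of 11 were higher and 4 lower, against 11.8% and 20.9% of all genes. Among the endothelial ones 3 were higher and 5 lower, against 18.1% and 33.4%. Among the latter Dab2, an endocytic adaptor, was higher by 0.82 and Foxa1 by 0.62, and Apob was lower by -1.12 and Hnf4a by -0.69.

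Markers of mesenchyme and smooth muscle were lower in GFP+ cells in 8 of 11 tested cases in each class, as Zfpm2 was. Their summed signal was 14.42 to 14.78 in GFP+ cluster, 23.05 to 23.19 in GFP- cluster, 24.71 to 24.96 in GFP+ endothelial and 32.26 to 32.91 in GFP- endothelial cells, and Myh11 was well above background in no group. Among endothelial cells Gata4 and Gata6 were higher in the GFP+ population, where these markers were lower. Between the GFP+ classes 8 of the 11 markers were lower in cluster cells (median -0.57), as Gata3, Gata4, Gata6 and Zfpm2 were. Between the GFP- classes 8 were also lower in cluster cells (median -0.40), while Gata4 was higher there and Gata6 was not called. Acta2 was higher in GFP+ cells of both classes (0.219 in cluster and 0.235 in endothelial cells). The part of such cells in these members' differences was not tested. Endothelial markers summed to 279.1 to 280.5 and 357.6 to 367 in GFP+ and GFP- cluster cells, and to 357.5 to 385 and 397 to 410.5 in the endothelial pair.

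In GFP+ endothelial cells, where Gata3 was highest, 18.1% of all genes tested were higher than in GFP- endothelial cells and 33.4% lower. Of 10 sympathetic and adrenal genes that act with GATA3 and were tested, 2 were higher and 3 lower there. The median of these genes was -0.13, equal to that of all genes. Their summed signal was 6.765 to 6.919 there and between 2.51 and 3.621 in the other populations, but 1 gene, Stmn2, made up 4.914 to 5.124 of it. Without Stmn2, a choice made after seeing the data, the sum was 1.794 to 1.851 in GFP+ and 1.982 to 2.104 in GFP- endothelial cells. Stmn2, a neuronal microtubule gene, was higher in GFP+ endothelial cells by 1.70 ± 0.080 (adjusted p = 0.00015). Hand2 (-0.33) and Ddc (-0.17) were among the lower ones, and Tfap2b was well above background in no group. Their part in the Gata3 difference was not tested. Of 11 T lineage genes 6 were tested, and 1 was higher and 4 lower in GFP+ endothelial cells, among them Tcf7 (-0.85), Lck (-0.49) and Il4, which was near background in both endothelial populations.

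Corepressors that FOG proteins bring to DNA, the NuRD complex and CtBP, were called about as often as all genes in the GFP comparisons. Between the cluster populations 1 of 15 was higher and 5 lower in GFP+ cells (background 32.7% either way), and between the endothelial populations 4 were higher and 3 lower (51.5%), with medians of -0.09 and -0.07. Between the GFP+ classes 10 were called, 5 higher and 5 lower in cluster cells, a larger share than the background of 50.3%. The interaction was called for 3 of the 15, a smaller share than the background of 31.1%. Chd3, a NuRD remodeller, was lower by -0.39 ± 0.054 in GFP+ cluster cells and higher by 0.35 ± 0.054 in GFP+ endothelial cells (interaction -0.74 ± 0.077, adjusted p = 0.00318). Mbd2, which reads methylated DNA, differed likewise (-0.18 and 0.46, interaction -0.64 ± 0.071, adjusted p = 0.00376). Of 9 genes with a GATA-type zinc finger outside the family, Trps1, a repressor of GATA sites, was lower by -0.63 ± 0.061 and -0.51 ± 0.061 in GFP+ cluster and endothelial cells. Mta2 was lower in both (-0.21 and -0.26) and Gatad2a among endothelial cells (-0.28), and none was higher in these GFP comparisons or called in the interaction. Gatad2a, Gatad2b, Mta1, Mta2 and Mta3 are also among the corepressors, so the counts are not separate.

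For the members whose groups span at least 1 log2 unit, the 3 named genes with the nearest profile over the 8 arrays were found by Euclidean distance after centring, among 12183 genes well above background on all arrays. Arrays of a group share their RNA, so these are likenesses over 4 populations. Nearest to Gata1 were Mt1, a metallothionein (distance 0.547 log2), Arhgdig (0.651) and Etv2 (0.781), the last an Ets factor that starts blood and endothelial fates. Nearest to Gata4 were Itgb4 (0.238), Gbp4 (0.26) and Unc13b (0.272). Among the 3 nearest to Gata6 were Tek, an angiopoietin receptor of endothelium (0.234), and Cd59a (0.243).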

How the data were processed

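Processed signal intensities were read from the scanner output of 8 one-colour Agilent arrays, which the authors made with Agilent Feature Extraction 10.10.1.1, per the file headers, with background subtracted. Control spots were left out, log2 taken, and each array's 75th percentile over the 43020 non-control spots subtracted. Spots flagged as outliers were then dropped, and the remaining spots of a probe were averaged. A gene was its brightest probe by mean over all arrays, named through RefSeq accessions for 26049 probes, current symbols for 3194 and the file's own name for 10176. A gene was tested where the scanner flagged its probe as well above background in 1 or more whole groups, with limma 3.58.1 (R 4.3.3; 4 group means, 8 arrays, 4 residual degrees of freedom, moderated, two-sided, Benjamini-Hochberg over 19547 genes, threshold 0.05), and "called" means past it. The script was tested on simulated data. The authors' deposited table of normalized intensities (linear, every column with a median of 198; the sources used here do not give its normalization) matched the scanner values (r from 0.9974 to 0.9997 per array) and served as an alternative.

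Replicate number may mark the slide on which an array lay. Replicate differences correlated between groups at 0.138 to 0.359 over genes in all 6 pairs of groups. Replicate number was therefore taken to pair the arrays. The main fit leaves it out, and it was fitted as a replicate block only as an alternative setting. Position on the slide and group cannot be told apart. Members and lists were chosen with earlier results of these data known. From each list up to 4 of the largest calls each way were named, less those with only a bound, and the 3 nearest profiles for members spanning at least 1 log2 unit. A few genes that this rule selects are not reported here by name and stay in the counts. The genes whose promoters are printed, and Tal1, were chosen after their values were seen. Where both arrays of a group had a probe near background, its level there is only a bound.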

Additional observations from a re-analysis of the deposited data

Results flagged for a closer look

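For 4 members the GFP+ minus GFP- difference was not the same in the cluster and endothelial populations, by a test of that difference itself. Gata6 differed by -1.04 (log2, cluster minus endothelial; adjusted p = 0.00135) and Gata4 by -1.02 (adjusted p = 0.00229). Gata3 differed by -0.63 (adjusted p = 0.0105) and Zfpm2 by -0.55 (adjusted p = 0.0239). Groups of 2 arrays are too small for a check of single arrays that stand apart.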

How the results depend on the processing

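Other settings were quantile normalization, normexp (offset 50), the deposited normalized values, and all genes tested or only those above background on all 8 arrays. Further settings were probes averaged per gene or taken singly, the replicate block, trend and robust moderation, each replicate number alone, and each array left out in turn. Normexp with the background of 2 spots reset was chosen after seeing the data. All directions of called member differences were kept under each setting. Under plain normexp the members called in the 2 GFP comparisons (cluster, endothelial), the 2 class comparisons (GFP+, GFP-) and the interaction were 1, 2, 0, 0 and 0 in place of 4, 6, 6, 3 and 4, the genes called 127, 100, 136, 14 and 1 in place of 6396, 10066, 9840, 4731 and 6081, and the pairs of group levels that differed, over all members, 4 in place of 29. On GFP- endothelial replicate 2, 2 spots lay far below their background and the 1st percentile after normexp was 685, against 56.6 to 75.3 on the other arrays; with those spots reset it was 62.6, and the counts of genes called that still differed by over 1.5 times were those between the GFP- classes (2739) and in the interaction (3777). With no filter, which tests 31890 genes, 3792 were called between the cluster populations, 1466 between the GFP- classes, where 1 member was called, and 2743 in the interaction. The difference of Gata6 between the GFP- classes changed sign to 3e-04 with quantile normalization and 0.0711 with normexp, none of these called.

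With each array left out, members called ranged from 4 to 4, 5 to 7, 5 to 6, 1 to 2 and 3 to 4 in the same order, genes called from 3676 to 5732, 7209 to 10085, 7469 to 9140, 1606 to 4210 and 3581 to 4656, and the differing pairs of group levels from 25 to 30. The lowest gene counts of the cluster GFP comparison were without the GFP- cluster arrays (3676 and 4071), and those between the GFP- classes without GFP- arrays (1606, 1630, 1964 and 2007). Signs of differences that were not called turned in some of these fits: between the GFP- classes Gata3 ranged from -0.13 to 0.01 and Gata6 from -0.026 to 0.023, between the GFP+ classes Gata5 from -0.24 to 0.12 and Zfpm1 from -0.0071 to 0.14, and in the interaction Gata5 from -0.10 to 0.26. The replicate block added the calls named in the text for Zfpm1 and Gata2 and changed no other call of a member. Signal over background limits no member, but each group has 2 arrays of 1 RNA pool.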
